A study of Homo sapiens with 24 samples.

Results

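The E2F transcription factor genes and the genes of 2 pocket proteins were examined for H3K4me3 in EndoC-βH3 cells. The members were taken by name, as E2F1 to E2F8, RB1 and RBL1, with no threshold on signal. All 10 had at least 1 H3K4me3 region within 2 kb of an annotated protein-coding start site, as did 14586 of 19702 protein-coding genes of GENCODE release 44 (74.0%). EndoC-βH3 is an established human beta-like cell line, immortalised with hTERT and SV40 large T antigen, which can be excised by a tamoxifen-activated Cre recombinase. The experiment compared 4 control samples labelled non-senescent with 4 samples labelled senescent, in which 4-hydroxytamoxifen had been given for 3 weeks. The genotype of both groups is labelled WT, and each sample held 500000 cells. All 8 came from 1 line, so the samples are cultures and not donors.

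H3K4me3 was profiled by MINT-ChIP, in which chromatin of each sample is digested to short runs of nucleosomes and barcoded before it is pooled for a shared immunoprecipitation. The deposited value used here is 1 mean normalised count per region over the samples. It joins the senescent and non-senescent states, so nothing below is a comparison of these states. There is no value per sample, no error could be given, and it was not tested whether neighbours in any order of levels differ beyond the spread between samples. Depth per sample is unknown. The mean counts sum to 1470677 over 97545 regions, of which the 19 regions of the members hold 0.0440%. A further 16 samples, for H3K27me3 and H3K9me3, were not analysed here.

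H3K4me3 is a histone mark of active and poised promoters and is deposited around transcription start sites. E2F proteins bind DNA, mostly as dimers with a DP protein, at genes for DNA replication and the cell cycle. Pocket proteins bind E2Fs and repress their targets, and phosphorylation by cyclin-dependent kinases releases the E2Fs. Large T antigen also binds pocket proteins.

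The labelled cell type was set against marker genes by the same measure. All 11 beta cell markers had a region, and 9 lay above 49.3, the median over all genes of the mean normalised count in a gene's strongest region. Their values ran from 6.94 at IAPP to 588 at ISL1, with a median of 259 and a sum of 2748. INS had 24.7, below the all-gene median. Of the 6 markers of other islet cells reported here, 5 had a region and PPY had none. The 5 values lay between 5.30 and 61.8, with a median of 26.3 and a sum of 146. All 5 exocrine and duct markers had a region and lay below the all-gene median, between 1.12 and 24.1. Their median was 3.54 and their sum 34.4. Of 6 markers of blood, endothelium and stroma, 3 had a region, between 4.37 and 97.1. Their median was 17.6 and their sum 119. The highest was CD68, and PTPRC, CDH5 and PDGFRB had none. The sums also depend on the number of genes in a list, which differs. Per kb of region width the lists overlapped more. Beta cell markers ran from 7.56 counts per kb at IAPP to 38.1 at ISL1, against an all-gene median of 19.0. INS with 14.0 and ABCC8 with 11.1 also lay below that median. IRX2 had 31.5 and CD68 31.9 per kb, and the other reported markers outside the beta cell list that had a region lay below it.

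The 2 pocket protein genes among the members carried the highest mean counts, and 7 of the 10 members lay below the all-gene median. RBL1, which encodes the pocket protein p107, had 132 mean normalised counts in its strongest region, and RB1, the retinoblastoma tumour suppressor gene, had 106. E2F5 followed with 82.4, E2F4 with 46.5 and E2F3 with 42.4. The E2F5 value comes from an intronic region, and the region nearest a start of E2F5 had 35.7, which is below E2F4, E2F3 and the all-gene median. E2F7 had 31.2, E2F8 24.5 and E2F2 18.8. E2F1 with 17.5 and E2F6 with 16.8 came last, and the mean count of RBL1 was 7.87 times that of E2F6. The median of the members was 36.8, against 49.3 over all genes, whose quartiles were 21.6 and 88.6.

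**Figure D1:**
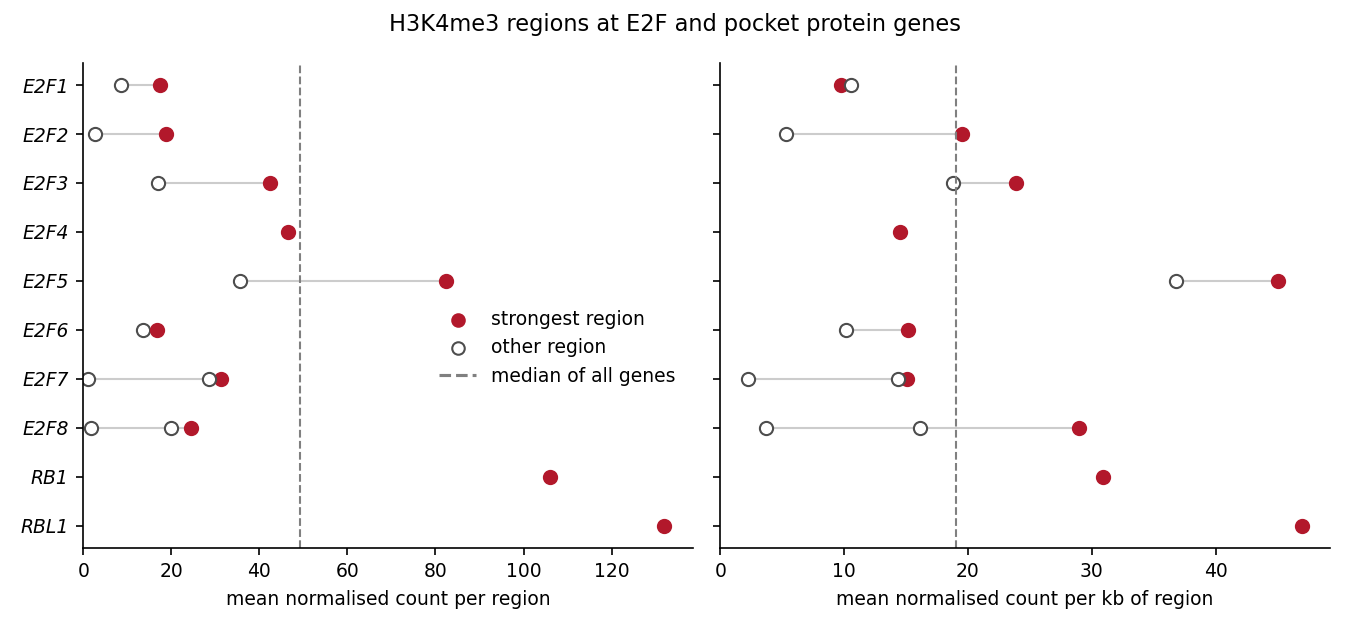
Mean normalised H3K4me3 count of each of the 19 regions (left) and the same per kb of region (right), by gene. Filled points are the strongest region of a gene, open points its other regions and the dashed line the median of all genes. On the left 3 genes lie to the right of the line, RBL1 at 132, RB1 at 106 and E2F5 at 82.4, and on the right 6 genes do.

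Wide regions collect more reads, so levels of different genes were compared per kb of region. Between genes, width was the only correction made here. DNA copy number and input were not corrected for, and their part in the levels was not tested. On this scale 6 of 10 members lay above the all-gene median of 19.0 counts per kb. RBL1 with 47.0 and E2F5 with 45.0 counts per kb stood at percentiles 97.5 and 96.9 of all genes. RB1 had 30.9, E2F8 29.0, E2F3 23.9 and E2F2 19.5 counts per kb. E2F6 and E2F7 both had 15.1, E2F4 had 14.5, and E2F1 was lowest with 9.77, at percentile 15.8. The percentile moved most for E2F8, which was at 27.9 by mean count and at 80.4 per kb, in a region of 846 bp. E2F4 moved the other way, from percentile 47.7 by mean count to 32.3 per kb, in a region of 3201 bp. The median width of the strongest region was 1812 bp for the members and 2498 bp for all genes.

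**Figure D2:**
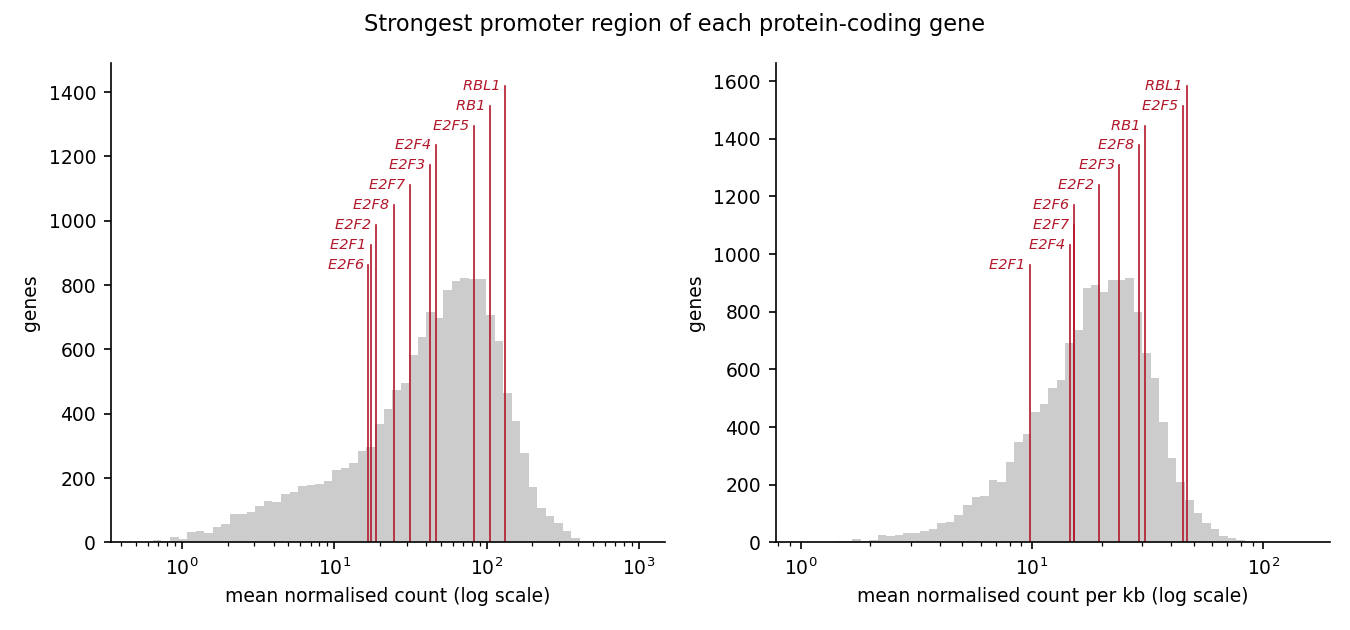
Numbers of protein-coding genes (grey) by the mean normalised count of their strongest region (left) and by the same count per kb (right), both on log axes, with the members as red lines. By mean count the members stretch from E2F6 at percentile 20.5 to RBL1 at 89.6, and per kb from E2F1 at 15.8 to RBL1 at 97.5.

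The promoter sequences are shown because E2F genes are themselves known to be targets of E2Fs, and the H3K4me3 regions could be set against the E2F-type motifs there. RefSeq promoters (GRCh38.p14) matched 7 of the 10 members, with 2 promoters for E2F3. None was matched to E2F5, E2F8 or RB1, so these genes are not in the promoter counts. The E2F-type motif was TTTCCCGC, TTTCGCGC, TTTGCCGC or TTTGGCGC on either strand. It occurred in 4 of the 7 members, against 4.10% of 21482 promoters of protein-coding genes of the same 300 bases. The 250 bases upstream of the start are printed on the strand of the gene, for E2F1 (chr20:33686386-33686635, minus strand), E2F2 (chr1:23531234-23531483, minus strand), E2F3 (chr6:20401629-20401878, plus strand) and RBL1 (chr20:37095998-37096247, minus strand), which hold the motif, and for E2F4 (chr16:67191905-67192154, plus strand), which does not. Capitals mark E2F-type matches on either strand, including matches to the related words TTTCCCGG, TTTCGCGG, TTTGCCGG and TTTGGCGG, which end in G and were added after the sequences had been seen.
E2F1: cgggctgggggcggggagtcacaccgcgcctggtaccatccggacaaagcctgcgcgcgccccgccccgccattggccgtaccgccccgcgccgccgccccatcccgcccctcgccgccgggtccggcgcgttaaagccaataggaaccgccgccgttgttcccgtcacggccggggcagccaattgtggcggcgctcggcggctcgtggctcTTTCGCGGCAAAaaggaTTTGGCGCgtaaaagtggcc
E2F2: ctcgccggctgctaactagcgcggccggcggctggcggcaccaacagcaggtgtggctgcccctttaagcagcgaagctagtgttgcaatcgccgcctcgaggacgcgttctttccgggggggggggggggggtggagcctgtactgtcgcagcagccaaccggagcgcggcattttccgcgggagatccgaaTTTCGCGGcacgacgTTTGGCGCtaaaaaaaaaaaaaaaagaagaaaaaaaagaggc
E2F3: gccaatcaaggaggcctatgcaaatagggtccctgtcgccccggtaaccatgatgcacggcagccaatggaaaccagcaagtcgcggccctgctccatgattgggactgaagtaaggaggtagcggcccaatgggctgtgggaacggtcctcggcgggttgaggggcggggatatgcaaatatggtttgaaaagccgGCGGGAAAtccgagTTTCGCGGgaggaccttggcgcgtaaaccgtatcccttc
RBL1: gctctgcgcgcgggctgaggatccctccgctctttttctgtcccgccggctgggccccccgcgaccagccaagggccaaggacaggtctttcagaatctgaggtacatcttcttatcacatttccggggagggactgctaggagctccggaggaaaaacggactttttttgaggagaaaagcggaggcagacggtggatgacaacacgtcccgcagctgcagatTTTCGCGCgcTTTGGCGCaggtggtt
E2F4: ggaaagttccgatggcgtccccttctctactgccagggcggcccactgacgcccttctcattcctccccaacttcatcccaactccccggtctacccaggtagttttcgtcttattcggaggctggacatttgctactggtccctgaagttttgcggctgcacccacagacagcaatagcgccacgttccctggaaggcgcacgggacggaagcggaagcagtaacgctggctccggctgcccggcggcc

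E2F1 held 2 matches, one as TTTGCCGC on the opposite strand from 33 bases before the start and one as TTTGGCGC from 20 bases before it. The TTTCGCGG match from 37 bases before the start overlaps the former, which gives the run of 12 capitals. E2F2 held TTTGGCGC from 42 bases before the start, and TTTCGCGG from 57 bases before it. In E2F3 the motif was TTTCCCGC on the opposite strand, from 53 bases before the start, followed by TTTCGCGG at 39. RBL1 held TTTCGCGC and TTTGGCGC, from 26 and 16 bases before the start. In these 300-base windows all 6 matches of the members began within 60 bases before it, as did 220 of 926 matches in all protein-coding promoters (23.8%), a limit chosen after the positions were seen.

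With the words ending in G included, 5 of the 7 members held a match, against 7.65% of protein-coding promoters. The addition was E2F6, with TTTCCCGG from 183 and from 78 bases before its start. E2F4, E2F7 and the second E2F3 promoter had no match to either form in this window. A CCAAT box (CCAAT, either strand) occurred in 3 of 7 members, 3 times in E2F1 and 4 times each in E2F3 and E2F7, against 34.9% of protein-coding promoters. A GC box (GGGCGG, either strand) occurred in 5 of 7 members, with 6 matches in E2F1, and E2F2 and RBL1 held none, against 56.8% of protein-coding promoters. The CHR-type motif (TTTGAA or TTCGAA, either strand), a form of the element bound by the MuvB complex, occurred in E2F3 alone, from 65 bases before the start, and in 13.8% of protein-coding promoters. In E2F7 the CCAAT box from 167 bases before the start overlaps the GC box from 164 bases before it, and in E2F6 the TTTCCCGG nearer the start overlaps the GC box from 72 bases before it. These matches describe letters and not binding.

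**Figure D3:**
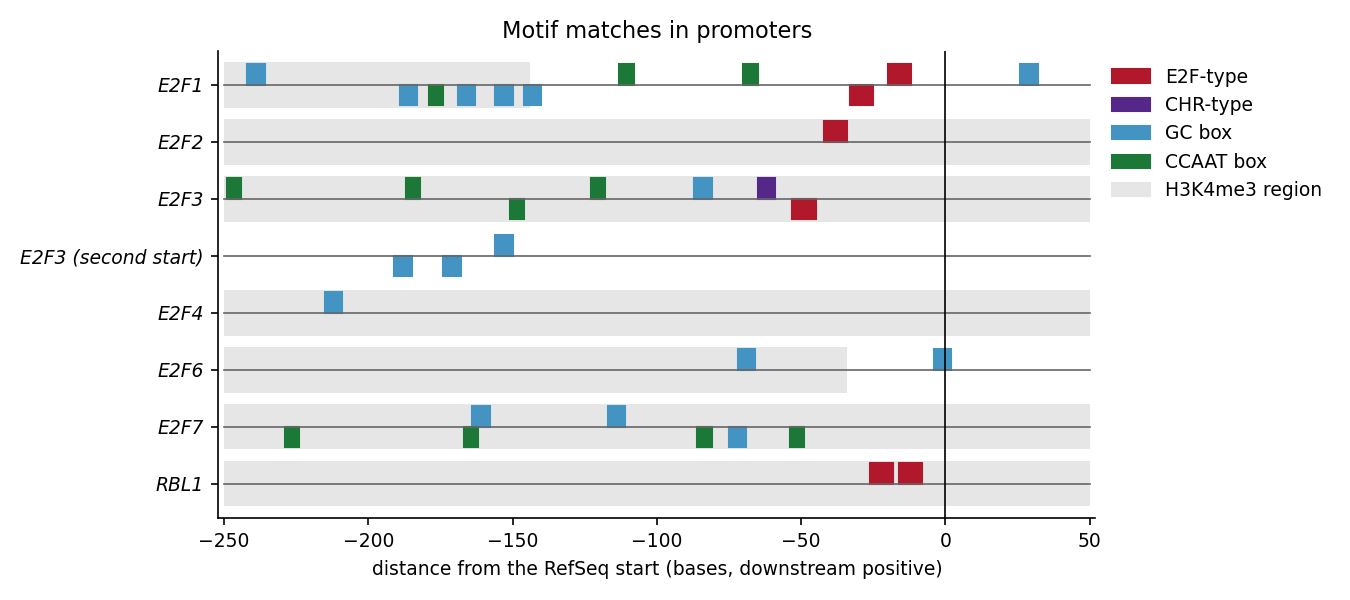
Motif matches in the 8 RefSeq promoters, from 250 bases before to 50 after the start (vertical line), with matches on the strand of the gene drawn above each line and those on the opposite strand below. Grey marks the part inside an H3K4me3 region, which covers 35.7% of the E2F1 promoter, 72.3% of that of E2F6, none of the second E2F3 promoter and the whole of the other 5, and the E2F-type matches (red) of E2F1 lie outside the grey.

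The E2F-type matches of E2F2, E2F3 and RBL1 lay inside H3K4me3 regions, and both matches of E2F1 lay outside any region. Over the strongest regions, which are longer than promoters, the E2F-type motif was found in 4 of 10 members and in 16.3% of 12836 distinct strongest regions. RBL1 held 5 matches in 2807 bp, and 3 of them lay outside the promoter window, beginning at 433 bases before and at 358 and 404 bases after the canonical start. E2F2 held 2, the further one from 363 bases before the start, and E2F3 held 1. The region of RB1 held 1, which began 25 bases before the canonical start, at chr13:48303726-48303733. The strongest region of E2F1 had none. Those of E2F5 and E2F8 also had none, but they hold no start. The sequence at the starts of E2F5 and E2F8 was therefore not searched.

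Among the activator E2Fs, which drive entry into S phase, H3K4me3 was higher at E2F3 than at E2F1 and E2F2 by both measures. E2F1 had 2 regions on chromosome 20, one of 17.5 mean counts at chr20:33684233-33686026 (hg38), 98.7% of it intron, and one of 8.58 upstream of the gene at chr20:33686529-33687341. Its only annotated start lay between them, in a gap of 503 bp, 144 bp from the upstream region and 359 bp from the downstream one. Per kb the 2 regions were close, at 9.77 and 10.6 counts.

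E2F2 had 18.8 mean counts at chr1:23531024-23531989, which spans its start with 78.3% upstream and 21.7% in UTR exon. Its other region, 500 bp wide and downstream, had 2.67. The strongest region of E2F3, at chr6:20400661-20402437, also spanned the canonical start and had 42.4. E2F3 has a second protein-coding start 1242 bp downstream of that region, from which a shorter E2F3 protein is made. This start lay in a gap of 1534 bp, and 292 bp further a second region, intronic, began with 16.9 mean counts or 18.8 per kb. Per kb the strongest region of E2F3 was 2.44 times that of E2F1 and 1.22 times that of E2F2.

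E2F4 and E2F5 encode E2Fs that act mainly as repressors with pocket proteins, and they stood far apart per kb. E2F4 had 1 region of 46.5 mean counts at chr16:67191212-67194413, which covered its canonical start and reached 2258 bp downstream. E2F5 had 2 regions. The one at chr8:85177829-85179659, all of it intron, had 82.4 mean counts, and the one at chr8:85176354-85177323, which holds both starts at the 5′ end of the gene, had 35.7. Both were high per kb, with 45.0 and 36.8 counts, and per kb E2F5 was 3.10 times E2F4. A further 3 annotated E2F5 starts, at least 8026 bp beyond the strongest region, had no region within 2 kb.

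E2F6 encodes an E2F that lacks the pocket protein binding domain and represses with Polycomb proteins. Its regions of 16.8 and 13.5 mean counts, at chr2:11466195-11467302 and chr2:11464459-11465787, lay on either side of its 2 starts, in a pattern like that of E2F1. The gap was 408 bp. The upstream region ended 18 and 34 bp from the starts, and the downstream one began 374 and 390 bp from them.

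E2F7 and E2F8, the atypical E2Fs, bind DNA without a DP partner and repress E2F targets. E2F7 had similar counts in a region that holds 4 of its starts (28.6 at chr12:77064541-77066535) and in an intronic region 516 bp further downstream (31.2 at chr12:77061959-77064025). Per kb these were 14.3 and 15.1. Their base composition differed, with 54.7% GC in the region at the starts and 38.7% in the intronic one. The last region, near a start within the gene, had 1.12.

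E2F8 had its highest count, 24.5, in a region that lies wholly upstream, from 1009 to 1855 bp before the canonical start, at chr11:19241954-19242800. The region over that start, at chr11:19239952-19241189, had 19.9. Another 2 starts of E2F8 lay in the 765 bp between them. Per kb the difference was wider, 29.0 against 16.1 counts. The third region, downstream, had 1.87. By strongest region, E2F7 per kb was 0.521 times E2F8, although E2F7 had the higher mean count.

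Both pocket protein genes among the members, RB1 and RBL1, had a single region that spans the canonical start. That of RB1, at chr13:48302687-48306116, was the widest among the members with 3429 bp and held 3 of its 4 starts. That of RBL1, at chr20:37094088-37096895, held 2 of 3 starts. Per kb RBL1 was 1.52 times RB1. The remaining start of each gene, 75134 bp from the region in RB1 and 26033 bp in RBL1, had no region within 2 kb.

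**Figure D4:**
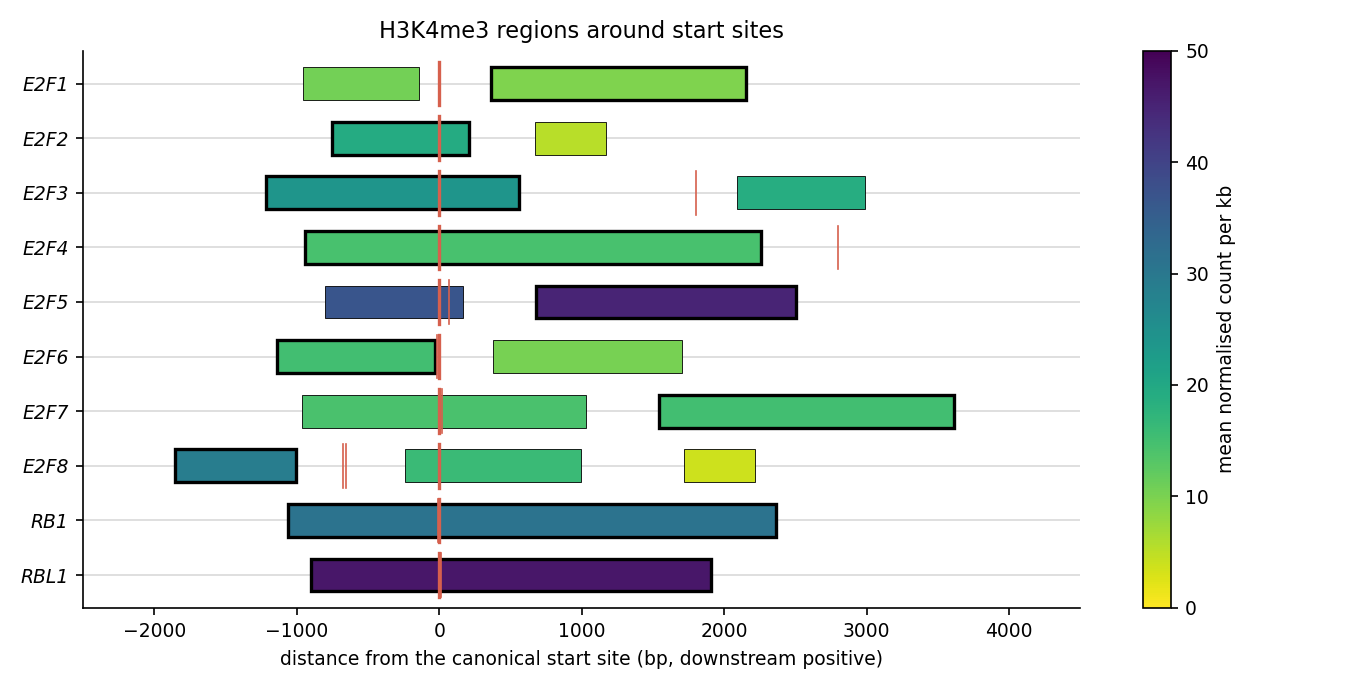
H3K4me3 regions of each member by distance from its canonical start site in bp, downstream positive, coloured by mean normalised count per kb, with a thick outline for the strongest region and red ticks for protein-coding start sites. The starts of E2F1 and E2F6 fall in gaps of 503 and 408 bp, and the strongest regions of E2F5, E2F7 and E2F8 do not hold the canonical start. The third region of E2F7 and the starts of E2F5, E2F7, RB1 and RBL1 beyond 4500 bp are outside the plot.

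The regions also differed in their place relative to the start. The canonical start lay inside a region in 8 of 10 members, and inside the strongest region in 5, E2F2, E2F3, E2F4, RB1 and RBL1. Over all genes with a region, 66.2% had it inside the strongest one. E2F1 and E2F6 had it between 2 regions, as did 12.8% of all genes with a region, while 71.8% of all genes had it inside one. For the 1868 genes with regions on both sides of the start the median gap was 730 bp, with quartiles of 545 and 1021 bp, so that the gaps of E2F1 and E2F6 were both below the lower quartile. In all, 15 of 28 annotated protein-coding starts of the members lay inside a region and 5 had none within 2 kb. Of 65941 such starts of all genes with a region, 61.2% lay inside a region and 18.5% had none within 2 kb. Of the members 7 had 2 or more regions, as did 37.1% of all genes with a region. The 9 member regions that were not the strongest had between 1.12 and 35.7 mean counts. Over all 97545 regions the median was 4.40 mean counts and the lower quartile 2.25. The weakest regions of E2F7 (1.12) and E2F8 (1.87) lay below that quartile, and that of E2F2 (2.67) lay below the median. Each of these was 500 bp wide, and without its weak region E2F2 would have only 1.

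No other protein-coding gene shared the strongest region of a member. Starts of antisense lncRNAs lay in several, and the mean count cannot be split between the genes. RB1-DT starts in the RB1 region, ENSG00000269846 in that of RBL1 and ENSG00000289981 in the strongest region of E2F3. At E2F5, E2F5-DT starts in the region at the start and ENSG00000254208 in the intronic region. The strongest region held such a start in 4 of 10 members and in 15.8% of all genes. Over all genes the share was 21.1% above the median mean count and 10.5% at or below it. The part of these lncRNAs in the counts was not tested.

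The strongest regions of the members had a median GC content of 54.3%, against 51.4% over all genes, and a median ratio of observed to expected CpG of 0.548, against 0.590. The CpG ratio was above the all-gene median in 4 members, E2F3 with 0.813, RB1 with 0.769, E2F2 with 0.727 and E2F8 with 0.689. It was lowest in the intronic region of E2F7 (0.220), in that of E2F1 (0.342) and in E2F4 (0.363). In the 300 bases of the RefSeq promoters the ratio was higher in each of these genes, at 0.956 in E2F7, 1.14 in E2F1 and 0.792 in E2F4. It was also higher there in E2F2 (1.12), E2F6 (0.951) and RBL1 (0.904), and lower at the first E2F3 promoter (0.793).

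**Figure D5:**
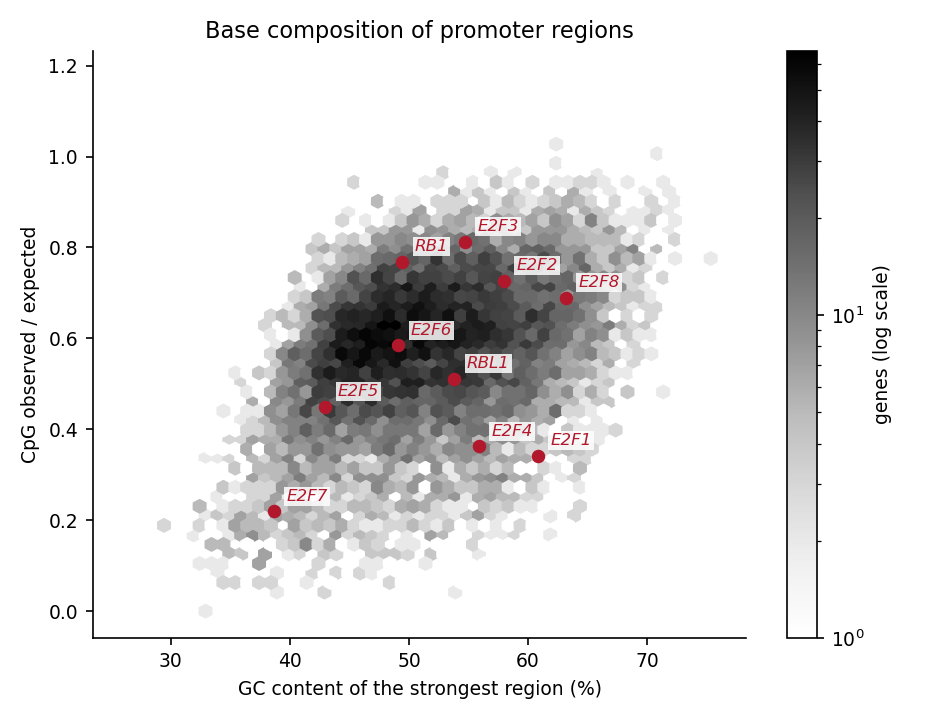
GC content (%) and ratio of observed to expected CpG in the strongest H3K4me3 region of each protein-coding gene (grey, darker for more genes, log scale), with the members in red. The strongest regions of E2F1, E2F4 and E2F7 lie low, at CpG ratios of 0.342, 0.363 and 0.220, and E2F3 lies highest among the members at 0.813.

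Of 9 genes whose products work with these proteins, 7 lay above the all-gene median by mean count, and the same number did per kb. With the region nearest a start in place of the strongest, 5 lay above it by mean count and 6 per kb. The all-gene medians were still those of strongest regions, so by mean count this number could fall but not rise. The median of the 9 genes over their strongest regions was 69.8 mean counts. The strongest regions of 4 of the 9 genes, LIN37, LIN52, RBBP4 and FOXM1, were also the strongest regions of other protein-coding genes, as for 23.2% of all genes, so their counts cannot be credited to 1 gene. The DP partners TFDP1 and TFDP2 had 63.2 and 136 mean counts, or 38.3 and 34.7 per kb. The TFDP1 value came from a region that began 762 bp after its canonical start, and the region that ended 43 bp before that start had 7.29 mean counts, or 12.2 per kb. In the MuvB core, which forms the DREAM complex with E2F4, a DP protein and a pocket protein such as p107, LIN54 had 154, LIN52 127, RBBP4 95.8 and LIN37 69.8 mean counts, and LIN9 had 8.15. Per kb LIN52 had 41.5 counts, LIN54 27.8, LIN37 26.998, RBBP4 20.7 and LIN9 12.2. The LIN37 value came from a region that ended 1573 bp before its canonical start, and the region over that start had 32.9 mean counts. Of the MuvB partners that activate late cell cycle genes, FOXM1 had 55.4 mean counts and 19.6 per kb, and MYBL2 had 21.1 and 9.38.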

How the data were processed

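Per the study's methods, MINT-ChIP reads were mapped by the authors with Bowtie2 (hg38), handled in samtools, and H3K4me3 peaks were called by HOMER. The deposited signal is a mean of counts over samples, normalised by the authors with DESeq2. How peaks were merged, reads counted and duplicates treated is not given in the sources used here. The other deposited columns hold the authors' comparison of the states (log2 fold change, standard error, statistic, p-value and adjusted p-value) and were not used. No test could be fitted, and no column of values per sample was used.

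Regions within 2 kb of any protein-coding start of GENCODE release 44 were given to a gene, and the one with the highest mean count was its value. Coordinates are those of the deposited table, and width is end minus start. Percentiles are over 14586 genes. Base composition and motifs came from hg38 and RefSeq promoters (GRCh38.p14, 250 bases before to 50 after a start), taken where the RefSeq start lay within 1 kb of a canonical start or, for E2F3, a second one. Linking and motif search were tested on simulated data. The members, marker and partner lists and motifs were chosen with earlier results of these data known, and all 10 members and 9 partner genes are named whatever their values. A marker gene of other islet cells is not reported here. Alternatives were other windows, regions, start sites, rankings, stretches and strands, and, added later, a wider E2F motif and the counts above the all-gene median by the region nearest a start. Python 3.11.15, pandas 2.3.3, numpy 2.4.6, pysam 0.24.0 and matplotlib 3.10.9 were used.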

Additional observations from a re-analysis of the deposited data

How the results depend on the processing

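The median mean count of the members, 36.8, was the same with a 5 kb window, with canonical transcripts alone and with transcripts of every type. It was 35.5 with a 1 kb window, 32.1 with the region nearest a start and 52.9 with all regions of a gene summed. Taking the region nearest a start lowered 4 members, E2F1 to 8.58, E2F5 to 35.7 (below E2F3, E2F4 and 49.3, the all-gene median of strongest regions), E2F7 to 28.6 and E2F8 to 19.9. With that region, 2 rather than 3 members lay above 49.3 by mean count, and 5 rather than 6 above the all-gene median per kb. This alternative for the count was chosen after the values were seen. Both medians were still those of strongest regions, so by mean count the number could fall but not rise. The members' median percentile, 39.2, was 59.1 per kb, 41.8 over distinct regions and 29.7 over regions with a mean count of at least 10. The median GC content was 54.3% over the strongest regions of 10 members and 63.2% over the 8 RefSeq promoters of 7 of them. The number of members with an E2F-type motif was 4, and also 4 over whole regions (of 10 members), where RB1 held one and E2F1 did not, 3 on the strand of the gene alone and 5 with words ending in G. The causes were not tested.

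With 1 pooled value per region, leaving out a replicate was not possible. No paired analysis was possible because the deposited column carries no replicate number. Depth, errors between samples and any difference between the states were not assessed here.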
